A study of Homo sapiens with 44 samples.

Results

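Among 407383 accessible regions (peaks) measured in Ccd18-Co cells, a fibroblast line from human colon, 488 (0.120%) opened with oncostatin M (OSM) and with none of 9 other cytokines. These regions were selected on their measured values. Coverage in a peak was divided by the total of its library in megabases (coverage per Mb), and the change is the mean of log2(coverage per Mb + 0.5) in a cytokine group minus that in unstimulated cells. A member had a change of 0.8 or more and a mean of at least 3 per Mb with OSM, and a change under 0.4 with each other cytokine. Because every cytokine contrast went into the choice, changes at members are given as descriptions with no test, and what the rule did not use (peak class, position, base composition and sequence) is described beside the same measures over all peaks.

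Accessibility was measured by bulk ATAC-seq, in which a transposase cuts open DNA and adds sequencing adaptors, in 44 libraries that formed 11 groups of 4 replicates. The groups were unstimulated cells and cells given IL-1β at 0.1 ng/ml or, at 10 ng/ml, one of OSM, TNF, IFNγ, IFNα, IL-6, IL-22, TGF-β1, IL-17A or IL-13. All groups shared the line, which was used up to passage 20, and cells were grown with serum and then, per the study's methods, kept in serum-free medium before and during a day of stimulation. Nothing in the labels says that replicates were separate cultures, so the spread between them may be technical. The cells are 1 line from 1 source, and in bulk libraries a region that opens in more cells cannot be told apart from one that opens more in each cell.

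OSM is a cytokine of the IL-6 family that is released mainly by myeloid cells and acts on stromal cells through the shared subunit gp130 paired with the OSM receptor or the LIF receptor. These receptors activate JAK kinases and STAT factors, above all STAT3, and also the MAP kinase route to AP-1. SOCS3 is a STAT3 target whose protein blocks gp130 signaling, and STAT dimers bind palindromic DNA of the form TTCNNNGAA, where N is any base. IL-6 uses the same gp130 subunit, and IL-22 also signals largely through STAT3. The study reports hardly any significant response of stromal cells to these cytokines. Under the same limits of change and level, IL-6 opened 704 peaks and IL-22 opened 557, against 4796 with OSM and 7744 with TNF. A lack of change with IL-6 or IL-22 at a member is therefore not particular to that region.

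Of the 16 strongest members whose OSM and unstimulated libraries did not overlap, 8 held that string and 8 did not. Among the 14 of them that lay outside untranslated exons, the sequences below are the 7 with the string, to show where it lay, and the pair with the largest change among the 7 without it. Each is a 121-base stretch of the hg38 reference plus strand, with any TTCNNNGAA in capitals, centered on the string or, where the peak held none, on the middle of the peak.
SOCS3, 5.63 kb past the start site, chr17:78354474-78354594: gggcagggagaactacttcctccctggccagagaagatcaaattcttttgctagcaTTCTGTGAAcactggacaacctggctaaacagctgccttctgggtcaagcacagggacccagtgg
SOCS3, 3.53 kb past the start site, chr17:78356351-78356471: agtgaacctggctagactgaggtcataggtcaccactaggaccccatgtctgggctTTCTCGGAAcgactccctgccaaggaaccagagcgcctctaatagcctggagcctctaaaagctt
WWC1 intron, chr5:168327103-168327223: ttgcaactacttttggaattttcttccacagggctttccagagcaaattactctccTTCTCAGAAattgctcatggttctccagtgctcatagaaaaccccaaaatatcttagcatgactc
NUDT19, intron of the divergent transcript, chr19:32690232-32690352: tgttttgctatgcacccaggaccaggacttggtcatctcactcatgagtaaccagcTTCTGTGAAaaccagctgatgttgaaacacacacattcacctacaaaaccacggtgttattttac
EPB41L4B, 28.5 kb before the start site, chr9:109349433-109349553: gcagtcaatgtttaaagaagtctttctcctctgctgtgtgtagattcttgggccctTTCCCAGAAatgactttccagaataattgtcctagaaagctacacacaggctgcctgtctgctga
COPZ1 intron, chr12:54307217-54307337: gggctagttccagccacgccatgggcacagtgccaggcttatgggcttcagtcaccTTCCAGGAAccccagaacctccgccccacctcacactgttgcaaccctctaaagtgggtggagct
GOLM1 intron, chr9:86072469-86072589: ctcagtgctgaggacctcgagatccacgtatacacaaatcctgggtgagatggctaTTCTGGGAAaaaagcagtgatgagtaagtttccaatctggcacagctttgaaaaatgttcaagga
ERCC1 intron, no match, chr19:45475274-45475394: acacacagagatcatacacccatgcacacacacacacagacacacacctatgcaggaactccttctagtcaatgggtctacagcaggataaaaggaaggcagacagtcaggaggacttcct
STAT3 intron, no match, chr17:42354983-42355103: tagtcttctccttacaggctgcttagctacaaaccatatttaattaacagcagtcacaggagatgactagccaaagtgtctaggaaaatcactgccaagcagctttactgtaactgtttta
The match in the SOCS3 region 5.63 kb past the start site and the match in NUDT19 were the same 9 bases, TTCTGTGAA. The COPZ1 match, TTCCAGGAA, was the only one shown that also fit the stricter form TTCCNGGAA. The ERCC1 and STAT3 introns held no match anywhere in their peaks, nor did the peaks of SESN1, HLX-AS1, PGS1 and LPAR3 and the SOCS3 peak 6.36 kb past the start site, which are not shown. Over all members 26.4% held the string, against 17.2% of all peaks. The median change of members was 0.95 with the string and 0.94 without it.

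The strongest member lay downstream of SOCS3, at chr17:78354195-78354695 and between genes in the annotation. Its coverage was 14.0, 16.1, 14.9 and 15.2 per Mb in the 4 OSM libraries, against 1.76, 1.60, 2.94 and 1.57 per Mb in the unstimulated libraries. The 36 libraries of the other cytokines ran from 0 to 3.46 per Mb with a median of 1.54, so no other library came near the OSM libraries. The change was 2.69 ± 0.18 (log2, SE, n = 4 against 4), or 6.45-fold on that scale. With TNF the same region held 0.623 ± 0.0556 per Mb (SD, n = 4), and all 4 TNF libraries lay below all 4 unstimulated ones. With IL-17A its change was 0.39 ± 0.22, just under the limit of 0.4, so its place in the set rests on the IL-17A libraries.

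Ranks 2 and 4 by change were held by a pair of neighboring peaks named for ERCC1, with the WWC1 peak described below at rank 3. ERCC1 is a DNA repair gene whose long transcripts run across FOSB on the opposite strand. At chr19:45475084-45475584, in an intron, coverage was 21.7, 24.1, 16.5 and 24.3 per Mb with OSM and 3.90, 5.01, 3.51 and 4.28 per Mb in unstimulated cells, a change of 2.24 ± 0.16. At chr19:45474578-45475078, in an untranslated exon that FOSB also covers, it was 18.1, 14.9, 15.3 and 16.2 per Mb against 3.65, 3.55, 3.66 and 2.46 per Mb, a change of 2.13 ± 0.13. The groups did not overlap at either peak, and the largest values among the 36 libraries of other cytokines were 6.29 and 4.46 per Mb. With IL-13 the changes were -0.79 ± 0.34 at the first peak, where the groups overlapped, and -1.54 ± 0.41 at the second, where they did not.

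The other leading members lay in genes with varied roles. In an intron of WWC1, a scaffold of the Hippo pathway (chr5:168326800-168327300), coverage was 7.66, 6.97, 9.14 and 6.51 per Mb with OSM against 1.29, 1.64, 1.03 and 1.28 per Mb, a change of 2.15 ± 0.14. A promoter-class peak named for NUDT19, a Nudix hydrolase gene (chr19:32690003-32690503), changed by 1.86 ± 0.17 with levels of 17.5, 15.5, 11.9 and 16.6 per Mb against 4.14, 4.57, 2.96 and 3.79 per Mb. With TGF-β1 the NUDT19 peak changed by 0.37 ± 0.23, just under the limit of 0.4. The peak upstream of EPB41L4B (chr9:109349324-109349824) changed by 1.84 ± 0.18. Introns of COPZ1, which encodes a coat protein of Golgi vesicles, and GOLM1, which encodes a Golgi membrane protein, changed by 1.79 ± 0.30 and 1.66 ± 0.19. At these 5 peaks the lowest OSM library was above each of the other 40 libraries. SESN1, a stress-response gene, LPAR3, a receptor for lysophosphatidic acid, and PGS1, a phospholipid synthesis gene next to SOCS3, followed with intronic changes of 1.63 ± 0.18, 1.54 ± 0.16 and 1.56 ± 0.11. At HLX-AS1 the change was 1.63 ± 0.22, but the lowest OSM library held 4.34 per Mb and the highest library of another cytokine 5.03 per Mb.

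STAT3 itself held a single member, in an intron 33.5 kb from its start site (chr17:42354793-42355293). Coverage there was 10.2, 10.4, 10.2 and 10.1 per Mb with OSM and 2.75, 2.80, 3.32 and 2.35 per Mb in unstimulated cells, a change of 1.71 ± 0.09. With IL-17A the change was 0.37 ± 0.19, just under the limit of 0.4. The 4 OSM libraries lay within a narrow band, and the highest value among the libraries of other cytokines was 5.08 per Mb. The IL-6 libraries gave 1.90 ± 1.04 per Mb (SD, n = 4), a change of -0.57 ± 0.36. They include replicate 4, the shallowest library of the series, in which 27.1% of all peaks held no coverage. Of 15 peaks at 3 per Mb or more with OSM within 50 kb of the STAT3 start site, 2 were opened by OSM, and the other one, 23.2 kb from the start, was raised further by TGF-β1 (1.61, against 0.81 with OSM).

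**Figure D1:**
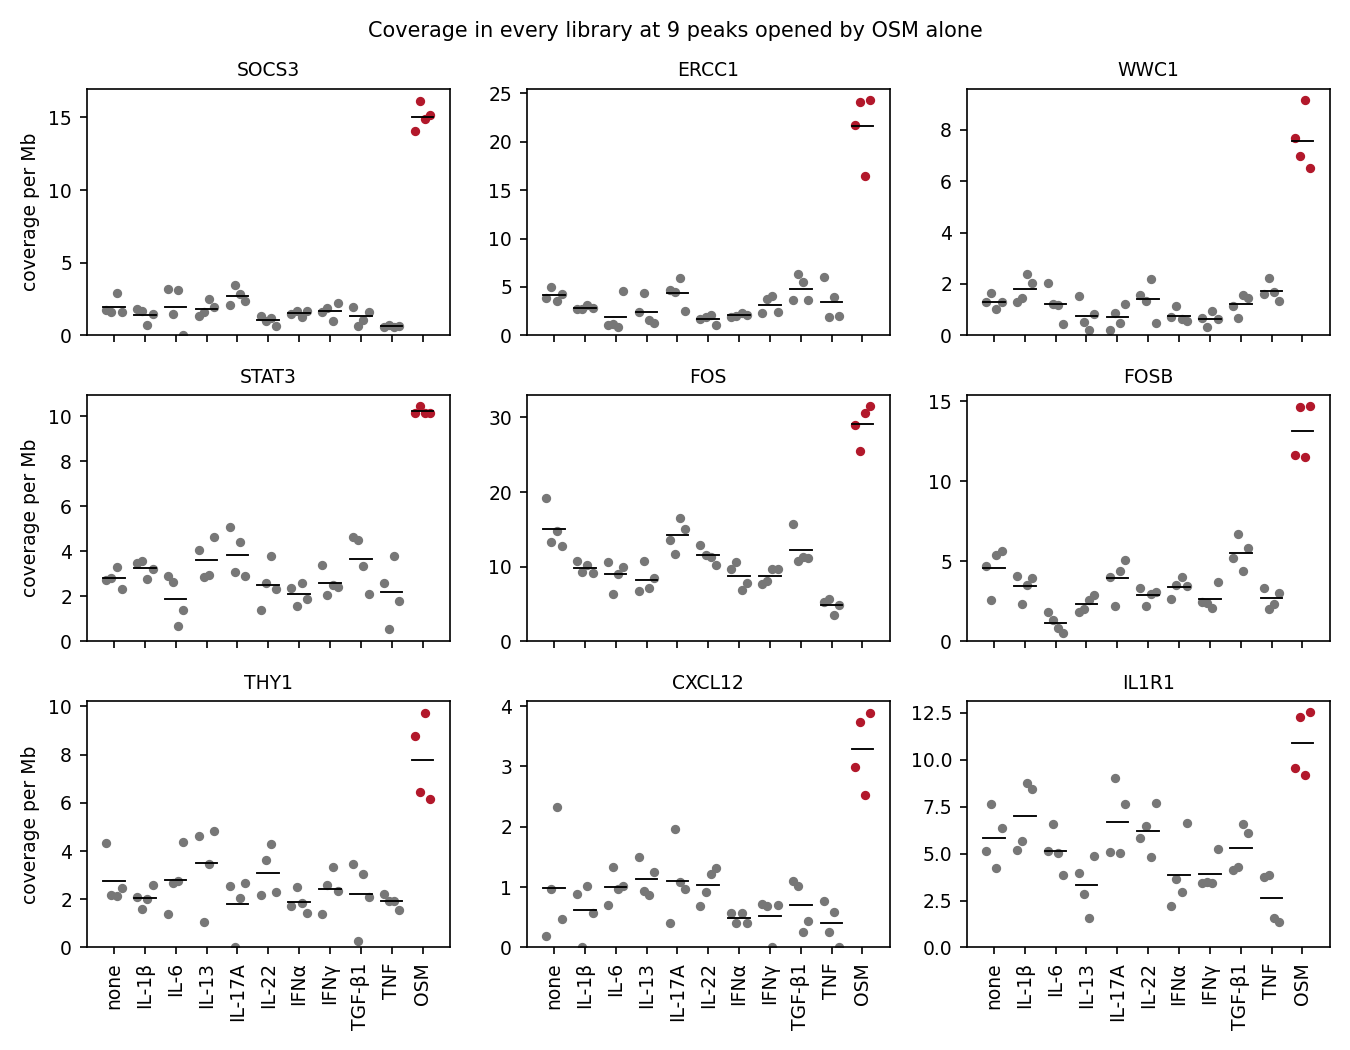
Coverage per Mb (y axis, linear from 0) in each of the 44 libraries at 9 members, each the strongest named one of its gene, with cytokines on the x axis. Points are libraries (red for OSM), and bars are group means. At SOCS3 the 4 OSM libraries sit between 14.0 and 16.1 per Mb and the highest library of another cytokine is at 3.46, while at IL1R1 the lowest OSM library, at 9.17, is close to the highest other value, 9.03.

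Over all members the change with OSM had a median of 0.94, from 0.80 to 2.69, with a median SE of 0.189. It was at least 1 in 173 members, at least 1.5 in 17 and at least 2 in 4. Coverage had a median of 3.98 per Mb in unstimulated cells (0.988 to 25.0) and 8.67 per Mb with OSM (3.04 to 44.6), so members held coverage before stimulation too. For scale, 1 per Mb corresponded to between 1.98 and 11.0 reads of 75 bases, depending on the depth of the library. Summed over members, coverage was 5381 ± 95.6 per Mb with OSM and 2619 ± 97.3 per Mb in unstimulated cells (SD, n = 4 each).

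The 4 OSM libraries all lay above the 4 unstimulated libraries at 448 of the 488 members (91.8%), where 3.84% of all peaks did so. They lay above all 40 other libraries at 293 members (60.04%), where 0.288% of all peaks did so. The rule used these contrasts, so both shares describe how cleanly the members separate and support nothing further. Among the 4308 peaks that OSM opened but that another cytokine also raised by 0.4 or more, 508 (11.8%) were above all 40.

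The word alone has to be read with the error of the limit. The largest change among the other 9 cytokines had a median of 0.28 across members, with a median SE of 0.219, and in 363 members it lay within 1 SE of the limit of 0.4. In 299 members the change with OSM lay within 1 SE of 0.8. On the other side, OSM opened 4796 peaks in all, of which members were 10.2%, and 706 of the shared peaks were kept out by a single cytokine. TGF-β1 was the only cytokine over the limit at 194 of these, IL-13 at 163 and IFNγ at 90. The gap between the change with OSM and the largest other change, which the rule keeps above 0.4, had a median of 0.68 and reached 2.30.

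**Figure D2:**
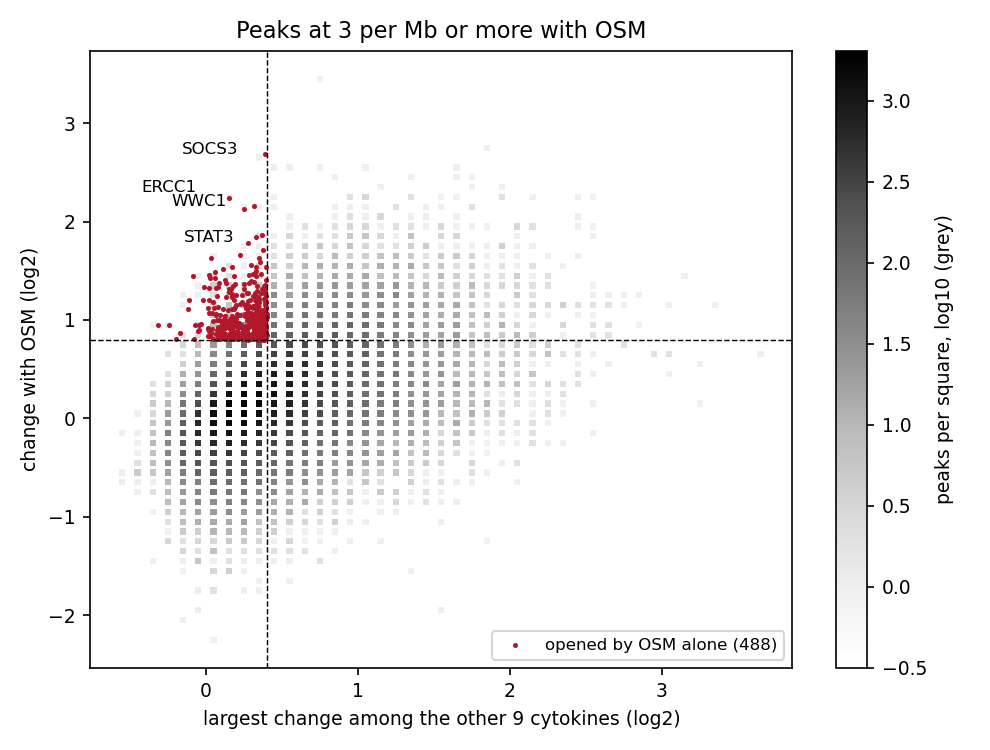
Change with OSM (y axis, log2) against the largest change among the other 9 cytokines (x axis, log2) for peaks at 3 per Mb or more with OSM; grey squares give the number of peaks on a log10 scale, red points are the 488 members, and dashed lines are the limits of 0.8 and 0.4. Members crowd against both limits, with a median change of 0.94 and a median largest other change of 0.28.

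At the lower limit the choice was between near-equal values. The last members inside were peaks named for LMCD1 (change 0.80 ± 0.32, from 2.30 to 4.26 per Mb), PRNP, the prion protein gene (0.80 ± 0.20, from 9.24 to 16.3 per Mb), and SNX18, a sorting nexin gene (0.80 ± 0.10, from 12.0 to 21.2 per Mb). The first outside were SLC38A11 (0.80 ± 0.26, from 4.62 to 8.10 per Mb), SUPT7L (0.80 ± 0.17, from 10.3 to 17.9 per Mb) and YY1AP1 (0.80 ± 0.13, from 5.25 to 9.48 per Mb). All 6 values of the change lay between 0.799 and 0.801.

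With 5 of the other cytokines the members sat a little lower than in unstimulated cells. The median change of members per library was 0.96 to 1.00 in OSM libraries and -0.05 to 0.04 in unstimulated libraries. It was -0.20 to -0.17 with TNF, -0.17 to -0.12 with IL-1β, -0.25 to -0.16 with IFNα, -0.11 to -0.05 with IFNγ and -0.13 to -0.05 with TGF-β1. The libraries of IL-17A, IL-13 and IL-22 fell on both sides of 0. IL-6 libraries gave 0.02, 0.04, 0.01 and -0.18, where the lowest came from replicate 4, the shallowest library of the series. The median over members of the change with IL-6 was -0.05 with that library and -0.0052 without it. With TGF-β1 all peaks at 3 per Mb or more with OSM had a median change of -0.11, below the -0.07 of the members, so that fall was not particular to members. A negative median is partly built in, since the rule capped these changes from above only.

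**Figure D3:**
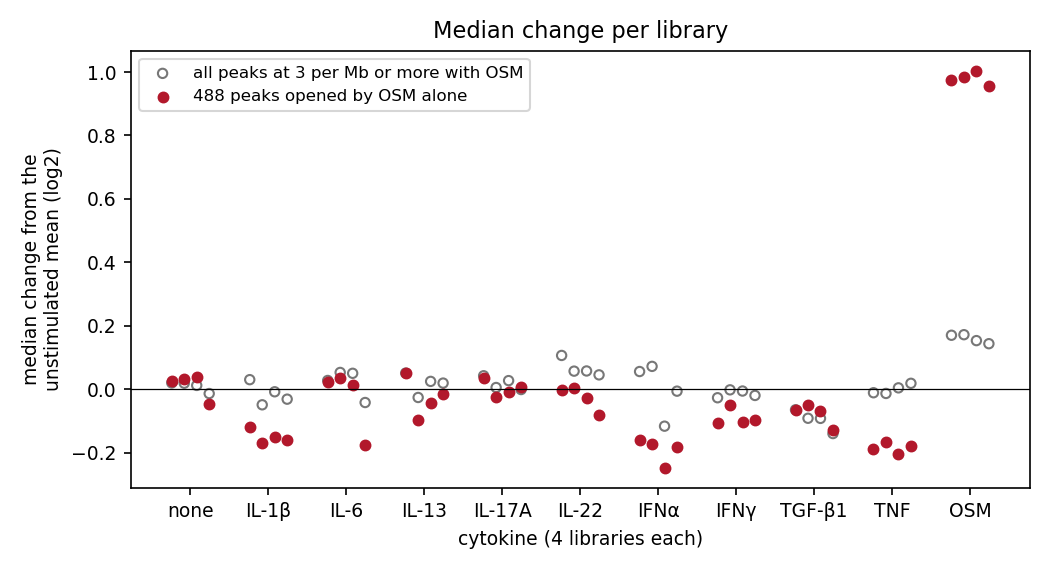
Median change from the unstimulated mean (y axis, log2) in each library, by cytokine (x axis), for the 488 members (red) and for all peaks at 3 per Mb or more with OSM (open circles). For members the 4 OSM libraries lie at 0.96 to 1.00, and all TNF, IL-1β, IFNα, IFNγ and TGF-β1 libraries lie below 0. Peaks at that level, a set chosen by its OSM coverage, had a median change of 0.15 with OSM, against -0.21 over all peaks.

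A subset of members was less open with an inflammatory or fibrogenic cytokine. All 4 TNF libraries lay below the 4 unstimulated ones at 70 members (14.3%, against 4.36% of all peaks), and all 4 IL-1β libraries at 67 (13.7%, against 3.56%). The same held for TGF-β1 at 53 (10.9%, against 3.41%) and for IFNα at 50 (10.2%, against 2.79%). Among peaks at 3 per Mb or more with OSM, where small differences are easier to resolve, the shares were 9.69% for TNF, 10.4% for IL-1β, 13.2% for TGF-β1 and 5.55% for IFNα, so only the TNF, IL-1β and IFNα shares of members were the higher ones. The rule set an upper limit on these contrasts, and no test was made. In all, 173 members (35.5%) were below in at least 1 cytokine, against 31.4% of peaks at that level and 15.8% of all peaks, and 85 (17.4%) in at least 2, against 14.4% and 6.24%. Both TNF and IL-1β libraries were below at 38 members (7.79%), against 4.90% of peaks at that level and 1.45% of all peaks. All comparisons share the same unstimulated libraries.

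FOS, which encodes a subunit of AP-1, gives an example. At chr14:75280706-75281206, in its coding exon, coverage was 28.9, 25.5, 30.6 and 31.6 per Mb with OSM and 19.3, 13.3, 14.8 and 12.8 per Mb in unstimulated cells, a change of 0.95 ± 0.15. With TNF it was 4.84 ± 0.932 per Mb (SD, n = 4), a change of -1.54 ± 0.19, and the groups did not overlap in either direction. The libraries of IL-1β, IL-6, IL-13, IFNα and IFNγ also all lay below the unstimulated ones there. The member with the steepest fall, picked after the values were seen, lay in an intron of LOC100506403 on chromosome 21 (chr21:35326583-35327083). It held 6.11 ± 0.751 per Mb in unstimulated cells, 18.4 ± 1.73 with OSM, 0.841 ± 0.484 with IL-1β and 1.54 ± 0.710 with TNF (SD, n = 4 each). IL-1β changed it by -2.38 and OSM by 1.52.

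Most members stood on their own, and a minority came in runs along a few genes. With members at most 100 kb apart joined, 37 clusters held 101 members (20.7%), and 12 clusters had 3 or more members. The other 387 were in no cluster. Each cluster ran from its first member to its last, so the rule set its ends and partly fixed the share of members inside. How often other peaks lie as close together was not measured, so the 20.7% is not a trait particular to members. Neighboring peaks of 1 region share reads and regulation, so members of a cluster are not independent of each other.

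The longest run spanned 99.4 kb from LINC01993 across SOCS3 to PGS1 and held 10 members among 35 peaks at 3 per Mb or more with OSM, 22 of which OSM opened. Of its SOCS3 members, the one at chr17:78353467-78353967 had 28.6, 31.8, 29.5 and 30.4 per Mb with OSM against 8.48, 11.1, 10.1 and 9.13 per Mb, and the one at chr17:78356297-78356797 had 19.5, 20.7, 17.1 and 18.9 per Mb against 6.55, 6.76, 4.96 and 6.86 per Mb. Their changes were 1.59 ± 0.09 and 1.53 ± 0.12. A member in an untranslated exon of SOCS3, 1.86 kb from the start site, changed by 1.45 ± 0.23 with OSM and by at most -0.08 with any other cytokine. The peak that opened most at SOCS3 was not a member. This peak, 4.93 kb past the start site, changed by 3.42, from 1.81 to 24.0 per Mb, but also by 0.75 with IL-17A. The 3 promoter-class peaks of SOCS3 and a peak 4.20 kb past the start site, with changes of 0.93 to 2.51, were kept out by other cytokines at 0.43 to 0.46. Members and shared peaks alternated within a few kb of each other at SOCS3.

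FOSB, which encodes another AP-1 subunit, and the part of ERCC1 that overlaps and adjoins it formed a block of 5.43 kb between the outermost members. OSM opened 8 of 8 peaks in that block, and 6 of them were members. From 2.41 kb past the FOSB start site to the ERCC1 intron the members changed by 0.99, 1.33, 1.20, 1.46, 2.13 and 2.24, whereas the FOSB promoter peak changed by 0.24. At chr19:45471114-45471614 coverage was 13.8, 10.4, 13.6 and 15.3 per Mb with OSM against 6.28, 5.04, 5.48 and 3.34 per Mb, and the largest change with another cytokine was -0.01. The peaks opened by OSM on either side of the ERCC1 pair were raised by TGF-β1, by 0.48 to 0.90, and so were left out. FOS likewise had 4 members in and just past its exons (changes 0.87, 0.95, 0.88 and 0.80) and another 36.1 kb before its start site, while its promoter-class peaks changed by 0.12 to 0.40.

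**Figure D4:**
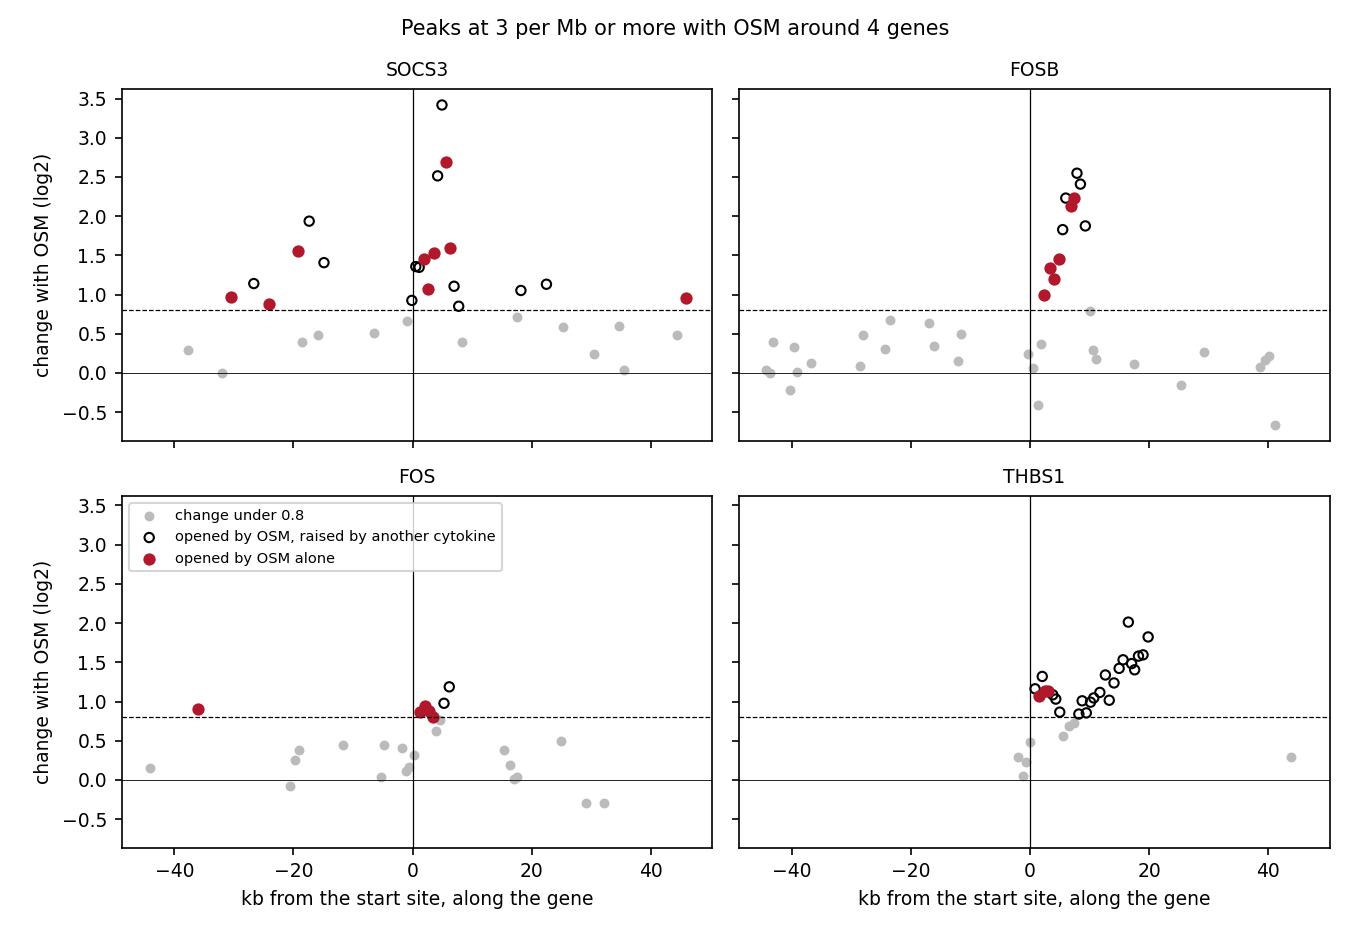
Change with OSM (y axis, log2) against distance along the gene from the start site (x axis, kb) for peaks at 3 per Mb or more with OSM within 50 kb of SOCS3, FOSB, FOS and THBS1. Red points are members, open circles are peaks opened by OSM that another cytokine also raised, and the dashed line is the limit of 0.8. The highest SOCS3 point, at 3.42, is an open circle, and at THBS1 the 3 members stand among 22 shared peaks.

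Other short runs had most of their members over gene bodies. From the first member to the last at ZFP36, whose protein promotes decay of cytokine messenger RNAs, and the adjoining MIR4530, all 4 peaks were members. Their changes were 0.95 ± 0.07, 1.18 ± 0.17, 1.21 ± 0.22 and 0.81 ± 0.11. Over the untranslated exons of MAT2A, which makes S-adenosylmethionine, all 4 peaks from the first member to the last were members too (0.93 to 1.15). Peaks beyond those ends are not in these counts. At THBS1, the gene of the matrix protein thrombospondin, 3 exonic peaks were members at 1.07, 1.13 and 1.13, but OSM opened 25 of the 33 peaks at that level around it, and IL-13 raised the other 22 past the limit. IGFBP5, which encodes a binding protein of insulin-like growth factors, had 4 members of 5 opened peaks, including a member 48.4 kb before the start site. CXCL12, a stromal chemokine gene, had 3 of 3, of exonic, intronic and distal class, and its exonic member held 2.99, 3.74, 2.53 and 3.89 per Mb with OSM against 0.182, 0.973, 2.33 and 0.473 per Mb, a low level at which its change of 1.54 ± 0.46 is uncertain.

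Lists of genes drawn up around OSM signaling held up to 8 members each, most of them from SOCS3 and FOS. Against 0.620% of all peaks at 3 per Mb or more with OSM that were members, the share was 0 of 70 peaks for gp130 cytokines and receptors and 1 of 70 (1.43%) for JAK and STAT genes, at STAT3. Feedback inhibitors had 6 members of 129 peaks (4.65%), 5 at SOCS3 and 1 at DUSP1, a MAP kinase phosphatase gene (0.82 ± 0.11). STAT3 target and acute phase genes had 8 of 288 (2.78%), which were 5 at FOS, 2 at NNMT and 1 at ZFP36. NNMT, a nicotinamide methyltransferase gene, had 4.17, 3.76, 5.24 and 3.33 per Mb with OSM in its stronger intronic member against 0.840, 1.21, 2.37 and 1.45 per Mb. The lists of feedback inhibitors and of STAT3 targets thus lay above the share over all peaks at that level, with most of their members at 1 gene each, and no share is a test of the list.

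For lists of genes of fibroblast state the shares ran from 0.519% to 1.72%. Inflammatory fibroblast genes had 2 members of 193 peaks (1.04%), namely a peak 36.3 kb into IL1R1, the receptor of IL-1 (0.86 ± 0.20), and a peak 25.8 kb before THY1, a surface marker of fibroblasts (1.36 ± 0.26). At THY1 the OSM libraries held 8.79, 6.46, 9.73 and 6.14 per Mb and the unstimulated ones 4.31, 2.16, 2.15 and 2.47 per Mb. At IL1R1 they held 9.58, 12.2, 9.17 and 12.6 per Mb against 5.14, 7.61, 4.24 and 6.36 per Mb. Matrix and protease genes had 2 of 385 (0.519%), at ADAM19, a membrane metalloprotease gene (1.28 ± 0.14), and 21.7 kb before COL6A3, a collagen VI chain gene (0.88 ± 0.19). Fibroblast transcription factors had 7 of 406 (1.72%), with 4 at FOSB, 2 at KLF9 and 1 at the RUNX2 promoter (0.93 ± 0.14, from 1.63 to 3.59 per Mb).

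By the class in the deposited names, members were mostly intronic (267 of 488) or distal (150), and only 19 (3.89%, exact binomial 95% interval 2.36 to 6.01%) were promoter peaks. The promoter class made up 7.15% of all peaks and 18.4% of those at 3 per Mb or more with OSM, so the members lay below both. Among peaks at that level with GC content in the middle range of the members it made up 6.25%, just above the members' interval. The shared peaks (5.80%) and the peaks opened by IL-13 alone or TGF-β1 alone under the same rule (3.27% of 367 and 2.09% of 621) were also low in promoters. Exonic peaks made up 10.7% of members (52; 8.06 to 13.7%), against 6.71% of all peaks, 6.48% of shared peaks, 6.54% of IL-13 members and 3.86% of TGF-β1 members. At 3 per Mb or more with OSM the exonic share was 9.66%, inside the members' interval. Among those peaks with GC content in the middle range of the members it was 4.91%, below that interval. The 19 promoter members included those of EFNA1, RUNX2, LYST and ALOX5AP, with changes of 1.00, 0.93, 0.99 and 0.87.

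The members had a low GC content for peaks of their level. The median was 43.5%, against 45.1% over all peaks and 49.5% at 3 per Mb or more with OSM (47.1% without promoter-class peaks). It was 42.9% for shared peaks, and 42.5% and 43.9% for peaks opened by IL-13 alone or TGF-β1 alone. The low GC content was thus not particular to members. When peaks at 3 per Mb or more with OSM were cut into 5 bins of GC content, 0.998% were members in the lowest bin and 0.0563% in the highest. The median change with OSM over all peaks of a bin was itself 0.25, 0.19, 0.13, 0.07 and 0.15 from the lowest bin to the highest, so it fell over the first 4 bins and was higher again in the last. Setting GC bins equal across libraries gave 2545 members when bins were matched over all peaks, and 235 when they were matched over peaks at 3 per Mb or more, an alternative added after the data were seen. Both settings also recentered the OSM contrast, whose median over peaks at 3 per Mb or more went from 0.15 to 0.44 and to 0.04, so GC content and this shift cannot be told apart in these counts.

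The string TTCNNNGAA, which reads the same on both strands, was present in 129 members (26.4%, exact interval 22.6 to 30.6%). It was present in 17.2% of all peaks of the same length, 15.4% of those at 3 per Mb or more with OSM, and 19.4% of those whose GC content lay in the middle range of the members. Shared peaks came to 23.5%, within the members' interval, and peaks opened by IL-13 alone or TGF-β1 alone to 16.9% and 18.7%. In the central 200 bases the share was 16.2% of members, 11.9% of shared peaks and 7.78% of all peaks. Where the string was present, it lay within 50 bases of the middle of the peak in 49 of 129 members (38.0%), against 25.9% for shared and 22.8% for all peaks. The stricter form TTCCNGGAA, contained in the first, was in 4.92% of members, 5.08% of shared peaks and 2.29% of all peaks. Within the members the median change was 0.95 with the string and 0.94 without it.

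Strings of other factors were counted in the same way. TGTGGT, searched on both strands as the core bound by RUNX factors, was in 48.2% of members (43.6 to 52.7%), close to the 49.4% of shared peaks and above the 30.6% of all peaks, the 36.6% at matched GC content, and the 32.7% and 37.4% of IL-13 and TGF-β1 members. TGANTCA, the AP-1 form, was in 41.4% of members (37.0 to 45.9%), which was below the shared peaks (47.9%) and TGF-β1 members (54.4%) and above all peaks (25.7%) and IL-13 members (18.5%). At matched GC content it was in 46.4% of peaks, above the members' interval. Both TTCNNNGAA and TGANTCA were absent from 44.1% of members, 42.9% of peaks at matched GC content, 39.7% of shared peaks and 61.7% of all peaks. GTCTAGAC, a form bound by SMAD factors, was in 0 of 488 members, where the upper bound of the exact interval is 0.753%, and in 0.342% of all peaks, which lies within that interval. It was also in 0 of 367 IL-13 members and in 6.44% of the peaks opened by TGF-β1 alone. A match is only a match of letters, and binding was not measured.

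**Figure D5:**
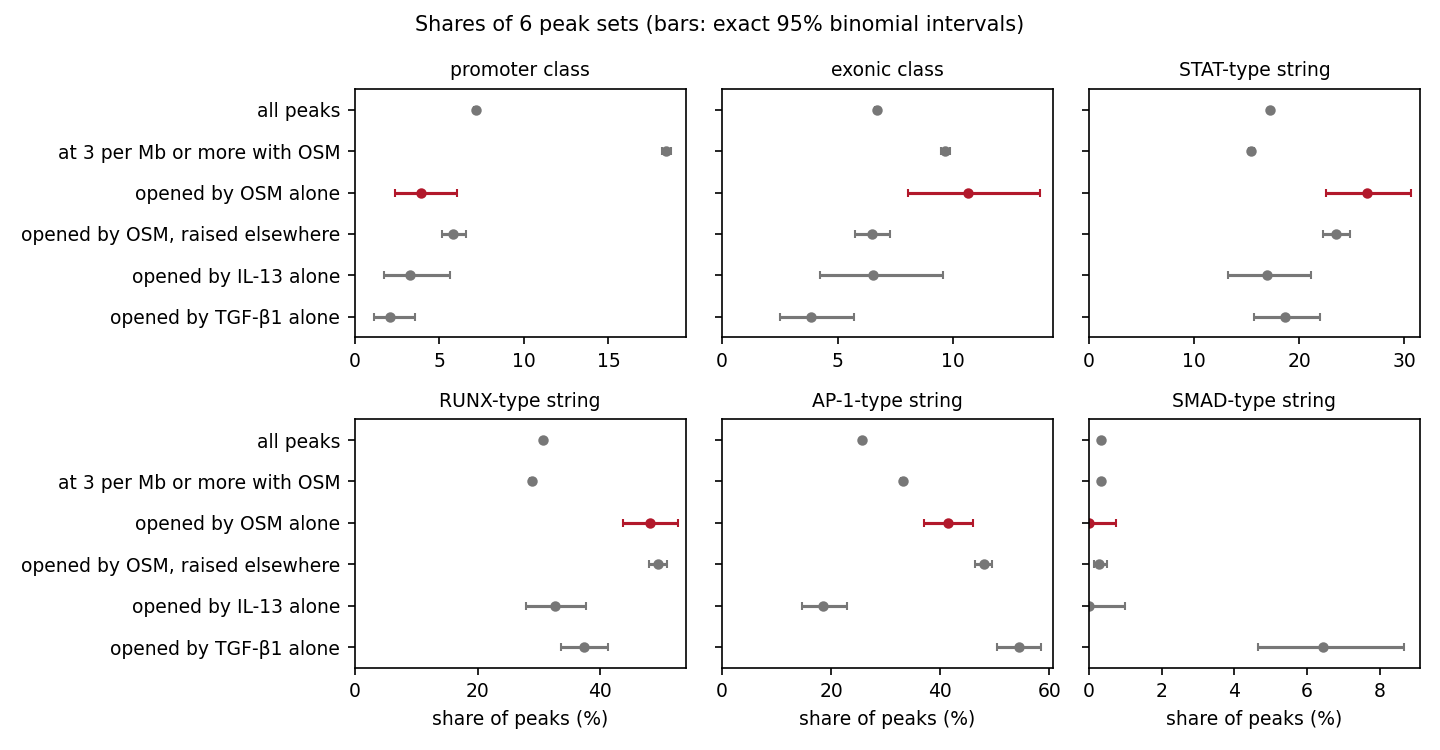
Share of peaks (x axis, percent, from 0) that are of promoter or exonic class or hold TTCNNNGAA (STAT-type), TGTGGT (RUNX-type), TGANTCA (AP-1-type) or GTCTAGAC (SMAD-type), in 6 peak sets (y axis), with exact 95% binomial intervals that cover counting error only. The members (red) reach 26.4% for the STAT-type string, against 17.2% of all peaks, and 0 for the SMAD-type string, against 0.342% of all peaks and 6.44% of peaks opened by TGF-β1 alone.

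Depth and background differed with OSM. Libraries held 148.8 to 823.1 Mb of coverage, with 552.6 ± 99.3 Mb in OSM and 414.1 ± 81.6 Mb in unstimulated libraries (SD, n = 4). Peaks without coverage made up 13.8 ± 3.29% with OSM and 7.52 ± 3.03% in unstimulated cells, and the median change with OSM was -0.21 over all peaks and 0.15 over those at 3 per Mb or more. The part of this shift in the members was not tested. As a check of the label, 11 of 12 fibroblast marker genes had a peak at the start site, and each of these held 3 per Mb or more in unstimulated cells (4.61 to 39.0 per Mb). The 4 endothelial markers were at 0.545 to 1.74 per Mb, and of the epithelial markers 3 of 6 had such a peak (1.87 to 4.60 per Mb, KRT8 the highest) and of the leukocyte markers 1 of 5 (CD14, 4.66 per Mb).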

How the data were processed

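The deposited table holds, per the file headers, summed read coverage for 407383 peaks in 44 libraries, a signal that the authors did not scale for library size. The authors' processing notes name MACS2 and hg38; how the peaks in the table were chosen is not given in the sources used here. Each peak spans 500 bases, and all lay inside the hg38 chromosomes. All 44 columns were matched to samples by library number. Coverage sums are not read counts, follow whole reads rather than cut sites and carry no molecular identifiers, so no count model was used and intervals cover counting error only. The most frequent low value was 75, taken as the length of 1 read.

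Members and gene lists were chosen with earlier results of these data known. Coverage was divided by the column sum, 0.5 was added and log2 taken, and the rule was applied to the whole table (Python 3.11.15, numpy 2.4.6, pandas 2.3.3). The script was checked on simulated data with planted changes. That check asked only for most of the peaks with the largest planted change, and for few unchanged peaks or peaks also raised with TNF. Standard errors use the SD of both groups, and intervals are exact Clopper-Pearson (scipy 1.17.1). Annotation was GENCODE v44, and sequences were read from hg38 with pysam 0.24.0. A peak is given the gene and class in its deposited name. Named peaks were the 16 members with the largest change among those with no overlap between groups, the 4 with the largest gap to the next cytokine, up to 3 a gene list, and the 3 on each side of the limit; peaks described for a cluster or locus were added after their values were seen. Scaling, GC, level, pseudocount, floor, averaging and single libraries were varied. IL-6 replicate 4 was kept.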

Additional observations from a re-analysis of the deposited data

Results flagged for a closer look

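Several single libraries stood apart from the other 3 of their group. Of 80 groups of 4 values examined, 10 had such a library, and chance flags about 1 in 20 groups. Library coverage was highest by a wide gap in IFNα replicate 2 (823.1 Mb), IFNγ replicate 2 (657.5 Mb) and TNF replicate 4 (726.6 Mb). The median change of the members stood apart in unstimulated replicate 4 (-0.048) and in IL-6 replicate 4 (-0.18), the shallowest library. Among named peaks, the SOCS3 peak at 78354195 had a high value in unstimulated replicate 3 (2.94 per Mb), the SOCS3 peak at 78356297 a low one in the same library (4.96 per Mb), the ERCC1 peak at 45474578 a low one in unstimulated replicate 4 (2.46 per Mb), the THY1 peak a high one in unstimulated replicate 1 (4.31 per Mb), and the STAT3 peak a high one in OSM replicate 2 (10.4 per Mb).

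Under several cytokines every library moved the members the opposite way to every OSM library. The mean of the library medians was -0.15 with IL-1β, -0.19 with IFNα, -0.090 with IFNγ, -0.078 with TGF-β1 and -0.18 with TNF, against 0.98 with OSM. The highest IFNγ and TGF-β1 libraries, at -0.0501 and -0.0485, were barely below unstimulated replicate 4, at -0.0482. For TGF-β1 all peaks at 3 per Mb or more with OSM fell as far (median change -0.11, against -0.07 for members). The difference was not tested, since the rule fixed its direction in part.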

How the results depend on the processing

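No paired analysis was possible because the results come from no test. Which peaks were members depended strongly on small shifts. Setting GC bins equal over all peaks gave 2545 members, 341 of them shared with the 488, with a promoter share of 6.44% and a TTCNNNGAA share of 21.7%. The median change of the 488 was then 1.31, and that over all peaks moved from -0.21 to 0.13. Matching GC bins over peaks at 3 per Mb or more, added after seeing the data, gave 235 members, 221 of them shared, and the median change of the 488 was then 0.80. A level-dependent (loess) offset moved the median over all peaks to 0.0079. The median change of the 488 was 0.92 with median-of-ratios factors, 0.91 with the loess offset, 0.99 with a pseudocount of 0.25 and 0.86 with 1. Counts of members under the other scalings, pseudocounts, floors and the median over replicates ran from 327 to 602. The NUDT19 peak was not a member with median-of-ratios factors or the loess offset, and the STAT3 peak was not a member under either GC setting.

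Without 1 library at a time there were 458 to 561 members, at least 324 of them among the 488, and the median change was 0.945 to 0.962. Only 101 members were found whichever library was left out and 220 under all 4 scalings planned. The 101, singled out after seeing the data, had a median change of 1.04 and a TTCNNNGAA share of 30.7%. OSM and unstimulated libraries did not overlap at 100 of them, against 3.84% of all peaks with OSM above, but their choice nearly fixed this count. The 101 include the ERCC1, SESN1, PGS1, LPAR3 and FOSB peaks named above but not the strongest SOCS3 peak or STAT3. The promoter share was 7.58% when taken as lying within 1 kb of an annotated start site (11.8% of all peaks, 29.9% of those at 3 per Mb or more with OSM), and the TTCNNNGAA share 16.2% in the central 200 bases. Of 435 values for the 29 named peaks under these scalings, pseudocounts and left-out libraries, 54 moved by more than the SD of the OSM libraries and the smallest was 0.56; their choice by a change of 0.8 or more nearly fixed the sign. Low coverage limits peaks near 3 per Mb.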
